A study of Bos taurus with 13 samples.

Results

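The comparison described here set the EV-coupled miRNAs of transition cows (TCs) at weeks 5 and 6 post-calving against those of heifers. All 3 pools of each group were used, which are 6 of the 13 libraries of the series, and a miRNA entered when it was listed in all 6 files. That held for 274 of the 307 miRNAs listed for either group and of the 311 listed anywhere in the series. EVs are membrane-bound particles that cells release into body fluids, and here they were pelleted by ultracentrifugation from follicular fluid, the fluid that bathes the oocyte inside the follicle. The fluid came from large follicles and was drawn through the vaginal wall from living animals (ovum pick-up). Both groups were Holstein Friesian. The TCs were 11 lactating cows whose blood metabolites and feed intake placed them in negative energy balance at that time and in positive balance later. The heifers were 8 animals that had not calved, so that energy balance, calving and lactation cannot be told apart in this comparison. No animal carried an allele or received an agent named in the labels. Each library was made from fluid pooled over animals, and how the animals of a group were divided among its pools was not stated, so p-values measure the spread between pools.

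A miRNA is a short RNA that, loaded into an Argonaute protein, pairs through its seed with messenger RNAs and lowers their output. Granulosa and theca cells, which line the follicle, and cells of the blood all release EVs, and miRNAs inside them are protected from degradation in the fluid. Follicular fluid is formed in large part from plasma that crosses the follicle wall, so vesicles of distant tissues can reach it. In a bulk library of this kind, fewer vesicles from a cell type and less of the miRNA in each vesicle cannot be told apart.

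Between 183525 and 379866 reads per library fell on the 274 miRNAs, and the 10 leading miRNAs held 48.6 to 54% of them. Values are CPM, read counts relative to the total of a library, after the 6 libraries were brought to 1 scale with TMM, and 1 read was worth 2.49 to 4.8 CPM. The profiles of the TC pools correlated with each other at r = 0.901 to 0.966 across miRNAs and those of the heifer pools at 0.946 to 0.984, whereas TC and heifer pools correlated at 0.888 to 0.954. These r describe miRNAs within libraries, which are not independent replicates. TC replicate 3 stood apart in scale, with a TMM factor of 0.785 against 0.984 to 1.135 in the others, and 13.5% of its reads came from miR-320a alone. miRNAs known from the ovary were among the abundant ones. miR-21-5p, which is abundant in granulosa cells, ranked first of all miRNAs at 69415 to 173778 CPM in TCs and 87035 to 134679 CPM in heifers, and the gonadal miR-202 stood at 3267 to 4524 CPM in TCs and 3398 to 6332 CPM in heifers. Neither differed between the groups by more than the spread of the pools (log2 fold change -0.06, SE 0.41, and -0.20, SE 0.30).

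In TCs, 6 miRNAs were upregulated and 9 were downregulated relative to heifers among 230 that passed a filter on low counts. The upregulated miRNAs were miR-130a, miR-6518, miR-375, miR-145, miR-24-3p and miR-26a. The downregulated miRNAs were miR-708, miR-223, miR-183, miR-204, miR-155, miR-18a, miR-1, miR-127 and let-7g. The 15 calls are 6.52% of the miRNAs tested (2.61% higher and 3.91% lower in TCs). The thresholds were those of the study: a log2 fold change of at least 1 in either direction, p below 0.05, and p no higher than 0.25 in limma once adjusted by the Benjamini-Hochberg method. Other settings moved the number of calls. With the replicate number of the pools as a block in limma, 34 miRNAs (14.8%) were called, 19 higher (8.26%) and 15 lower (6.52%) in TCs. The design does not state that pools of the same number belong together. With a covariate for the day on which the RNA was measured, limma kept 0 of the 15 calls, and with a pseudocount of 1 CPM it kept 4. In the fit without these, the smallest adjusted p-value in limma was 0.1485, so that 0 miRNAs would pass at 0.05, and 42 (18.3%) had an unadjusted p-value under 0.05, of which 17 were higher in TCs and 25 lower. Fold changes were taken on log2(CPM + 5), which understates the change of low miRNAs. The median over all 230 was 0.01, with 117 miRNAs higher and 113 lower in TCs. The split of the calls moved with the scaling: it was 4 up and 22 down on library totals, 4 and 16 on the values as deposited and 4 and 12 with TMM over all listed miRNAs, where the median of all miRNAs was -0.24, -0.11 and -0.03.

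**Figure D1:**
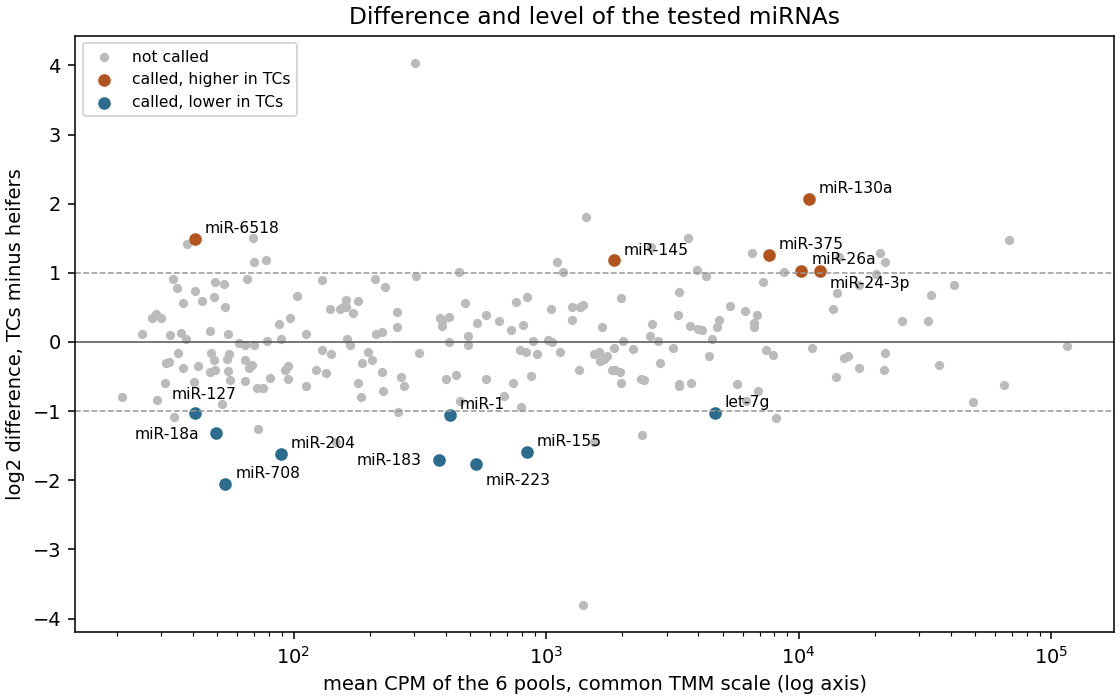
Log2 difference between TCs at weeks 5 and 6 and heifers (vertical axis, log2(CPM + 5) scale) against the mean CPM of the 6 pools (horizontal log axis) for the 230 miRNAs tested. Coloured points are the 6 miRNAs called higher and the 9 called lower in TCs, dashed lines mark a log2 difference of 1 in either direction. The called miRNAs range from miR-127 and miR-6518, both at a mean of 40.57 CPM, to miR-24-3p at 12169 CPM. miR-24-3p ranks 23rd in level, and no miRNA above it was called.

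The 3 TC pools lay wholly above or wholly below the 3 heifer pools in 50 of the 230 miRNAs (21.7%), 19 of them higher and 31 lower in TCs, and all 15 called miRNAs were among the 50. For 3 pools against 3, the smallest p that an exact permutation test (two-sided) allows is 0.1. Any miRNA whose pools do not overlap reaches it, so each of the 15 did. This adds no support to the calls, which were made from the same values. For a single miRNA without a difference, pools would fail to overlap at that rate of 0.1, and the miRNAs are not independent. Because the pools of the 2 groups did not overlap in the 15, leaving out 1 pool could hardly change a sign. Each kept it in 6 of 6 cases, and under every other setting in which it was tested. The calls required a log2 fold change of at least 1, so this is no separate support for them. The number of calls, in contrast, rested on the pools: 46 miRNAs were called without TC replicate 2 and 30 without heifer replicate 3, and 0 without any one of TC replicates 1 and 3 and heifer replicates 1 and 2.

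**Figure D2:**
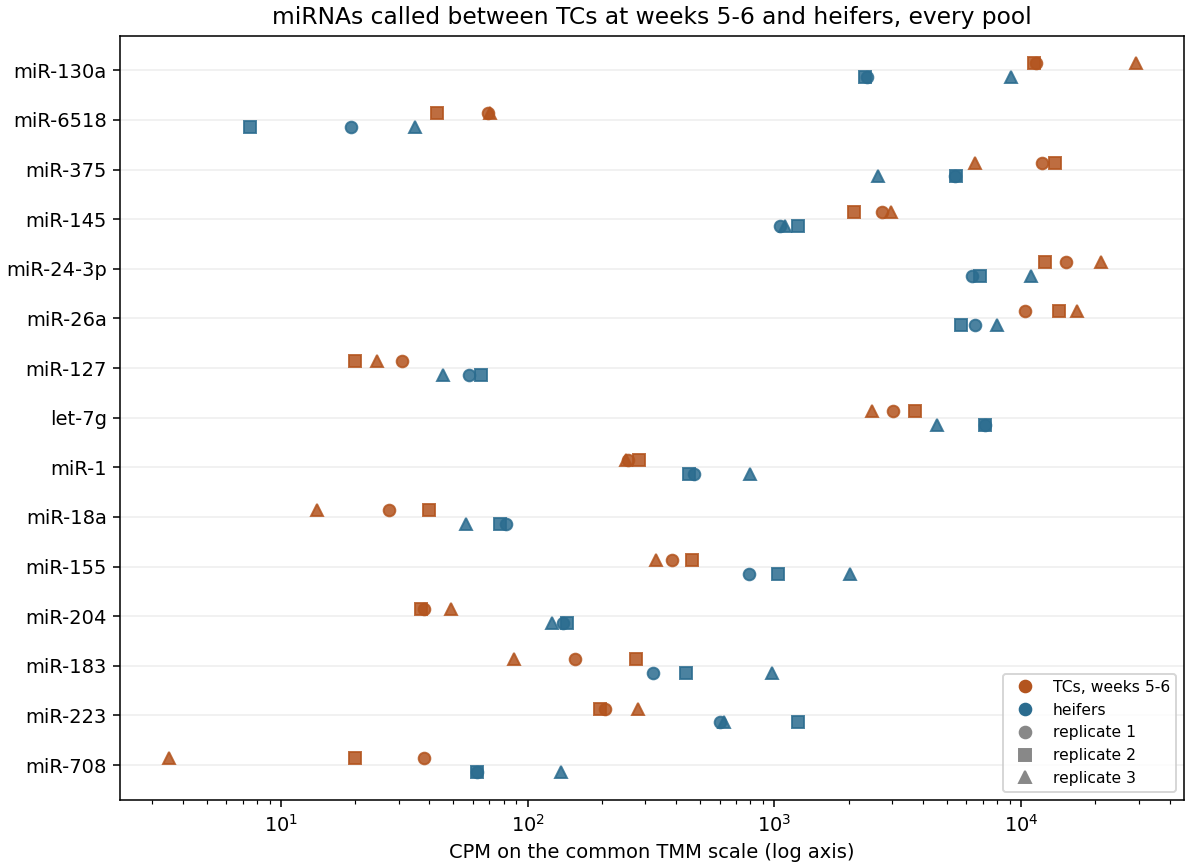
CPM on the common scale (horizontal log axis) of the 15 called miRNAs in every pool, with TCs at weeks 5 and 6 above and heifers below each line and the marker giving the replicate number. The groups do not overlap in any of the 15, and miR-708 in TC replicate 3 stands at 3.51 CPM, which is 1 read.

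Of the leukocyte miRNAs, miR-223 and miR-155 were lower in TCs. miR-223, which is made by neutrophils and other myeloid cells, was at 207, 197 and 281 CPM in TC replicates 1, 2 and 3 and at 600, 1241 and 628 CPM in the heifer pools. The TC pools lay close together and the lowest heifer pool was still above the highest of them. Its log2 fold change was -1.76 (SE 0.36, limma adjusted p = 0.1485). miR-155, which activated lymphocytes and macrophages produce from its own host transcript, was at 386, 466 and 330 CPM in TCs and at 792, 1035 and 2025 CPM in heifers. Heifer replicate 3 was the highest pool, and the groups did not overlap. This gave a log2 fold change of -1.59 (SE 0.39, limma adjusted p = 0.2178).

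The other members of the leukocyte list did not pass the call without the replicate block. miR-146a, which NF-kB signalling induces in immune cells, was at 189, 129 and 179 CPM in TCs and at 211, 376 and 469 CPM in heifers, with a log2 fold change of -1.01 (SE 0.38, limma adjusted p = 0.2549). It was called with the replicate block (limma adjusted p = 0.1224). miR-150 of mature lymphocytes was at 506, 388 and 604 CPM in TCs and at 667, 913 and 992 CPM in heifers (-0.78, SE 0.29, the same adjusted p). In both, every TC pool was below every heifer pool. miR-142-5p of blood cells overlapped between the groups, at 1467 to 1720 CPM in TCs and 1531 to 2475 CPM in heifers, with a log2 fold change of -0.40 (SE 0.27). Of the 5 members tested, 2 were called lower, beside 3.91% of all miRNAs, and 0 higher, beside 2.61%. With the block 3 were called lower, beside 6.52% of all miRNAs. All 5 had a negative fold change, and their median log2 fold change was -1.01 against 0.01 over all miRNAs. The level of the list summed over its members was 2775 to 3131 CPM in the TC pools and 4728 to 6055 CPM in the heifer pools, with no overlap. All 5 kept the negative sign under each of the 5 scalings and without any one pool. The scalings shifted all fold changes nearly alike, and the pools of 4 members did not overlap. The sign could thus hardly change, and this is no separate support. miR-142-3p was listed at too few reads to be tested.

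The erythroid list did not separate the groups. miR-451, a red cell miRNA cut by Argonaute instead of Dicer, was at 37.9, 54.3 and 147 CPM in TCs and at 360, 167 and 121 CPM in heifers. TC replicate 3 was above heifer replicate 3, and the log2 fold change of -1.45 (SE 0.60) had a limma adjusted p of 0.2701. miR-486, the other red cell miRNA tested, was at 716 and 891 CPM in TC replicates 1 and 2, at 5559 CPM in TC replicate 3, and at 1588 to 3485 CPM in heifers. That one TC pool was the highest of all 6, and the log2 fold change was -0.54 (SE 0.78). Summed over the 2 tested members the list ranged from 754 to 5707 CPM in TCs and from 1708 to 3845 CPM in heifers. The third defining member, miR-144, was listed for heifers alone, with 1 to 4 reads. The part of blood cells in the results was not tested.

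let-7 miRNAs, a conserved family that accumulates as cells differentiate and whose processing LIN28 blocks, had negative fold changes throughout, and 1 member was called. let-7g was at 3033, 3704 and 2478 CPM in TCs and at 7133, 7132 and 4543 CPM in heifers. Replicate 3 was the lowest pool within each group, and no TC pool reached a heifer pool. On the log2 scale the difference was -1.02 (SE 0.28, limma adjusted p = 0.2405). The other 8 members tested had log2 fold changes of -0.10 to -0.85 and were not called. Of all miRNAs tested, 3.91% were called lower. let-7b, the third most abundant miRNA of the comparison, was at 46153, 73592 and 34920 CPM in TCs and at 80584, 99386 and 53509 CPM in heifers, so that TC replicate 2 lay above heifer replicate 3 (-0.62, SE 0.39). let-7c was lower in every TC pool (3229 to 5494 CPM) than in every heifer pool (6149 to 10935 CPM), at -0.85 (SE 0.32, limma adjusted p = 0.2549). let-7i was the most even member, with 18319 to 19226 CPM in TCs and 23892 to 26247 CPM in heifers. The median of the 9 was -0.50, and the negative sign held in all 9 under each of the 5 scalings and in 8 of 9 without TC replicate 3. Since the scalings shifted all fold changes nearly alike, their agreement is no separate support.

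miR-204 gave the smallest p-value of the comparison. It lies in an intron of TRPM3 and is known from the retinal pigment epithelium. Its level was 37.9, 37.1 and 49.1 CPM in TCs, from 11 to 14 reads, and 139, 144 and 126 CPM in heifers, from 29 to 58 reads. Both groups were tight, and they did not come near each other. The log2 fold change was -1.62 (SE 0.29, limma adjusted p = 0.1485). miR-708, from an intron of TENM4, was at 37.9, 20.0 and 3.51 CPM in TCs and at 62.4, 62.2 and 137 CPM in heifers. The fold change of -2.05 (SE 0.65, limma adjusted p = 0.2405) was the largest fall among the calls, and it leaned on TC replicate 3 and heifer replicate 3, which are the lowest and the highest pool. It was called in 1 of the 6 fits that left out a pool, the one without TC replicate 2. miR-1, miR-127, miR-183 and miR-375 were likewise called in 1 of the 6, and the other called miRNAs in 2.

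Epithelial miRNAs moved unevenly. miR-183, which is transcribed with miR-96 and miR-182 and is known from sensory epithelia, was at 155, 274 and 87.7 CPM in TCs and at 322, 438 and 974 CPM in heifers. TC replicate 3 was the lowest pool and heifer replicate 3 the highest, and the groups did not overlap. Its log2 fold change was -1.70 (SE 0.56, limma adjusted p = 0.2405). Its neighbour miR-182 was at 258, 623 and 176 CPM in TCs and at 470, 684 and 531 CPM in heifers, with overlap (-0.85, SE 0.48). miR-205 of stratified epithelia was lower in every TC pool, at 1394, 2316 and 635 CPM against 3207, 4433 and 2357 CPM, but its adjusted p of 0.2549 in limma missed the threshold at a log2 fold change of -1.34 (SE 0.50). With the replicate block it was called (limma adjusted p = 0.0433).

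miR-184, an epithelial miRNA abundant in cornea and lens, had the most negative fold change of all 230 and was not called without the block. It was at 62.0, 1362 and 28.1 CPM in TCs and at 998, 3776 and 2132 CPM in heifers. TC replicates 1 and 3 lay far below all heifer pools, and TC replicate 2 lay above heifer replicate 1. This gave a log2 fold change of -3.80 (SE 1.34, limma adjusted p = 0.2549). With the block it was called, at a limma adjusted p of 0.0625. The miR-200 family, the common mark of epithelial cells, did not follow. miR-200a was at 2730 to 14657 CPM in TCs and 4127 to 7204 CPM in heifers, miR-200b at 1176 to 4998 CPM and 3245 to 4798 CPM, and miR-200c at 818 to 4298 CPM and 2155 to 3127 CPM. In all 3 of them, TC replicate 2 was the highest and TC replicate 3 the lowest of the 6 pools, so the heifers fell inside the range of the TCs. Of the 9 epithelial members tested, 1 was called lower (3 with the block), 0 were called higher, 3 had a positive fold change, and the median was -0.61. Of all miRNAs, 3.91% were called lower without the block and 6.52% with it. Without TC replicate 3 the median was -0.01 and without TC replicate 2 it was -1.10.

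Among the remaining downregulated miRNAs, miR-1 of striated muscle was at 255, 283 and 249 CPM in TCs and at 470, 450 and 794 CPM in heifers. The TC pools differed little, and all were below the heifer pools. On the log2 scale the difference was -1.06 (SE 0.31, limma adjusted p = 0.2405). miR-133a, which lies within 10 kb of miR-1 in the ARS-UCD2.0 annotation, overlapped between the groups at 27.5 to 54.3 CPM and 26.8 to 86.4 CPM (-0.43, SE 0.48). Of the 4 muscle members tested, 1 was called lower, beside 3.91% of all miRNAs. miR-499 was the one with a positive value (0.78, SE 0.31, limma adjusted p = 0.2607). Every TC pool of it, at 40.0 to 49.1 CPM, was above every heifer pool, at 18.8 to 29.85 CPM. The median of the 4 was -0.75.

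miR-18a, a member of the miR-17-92 cluster that promotes proliferation, was at 27.5, 40.0 and 14.04 CPM in TCs and at 81.6, 77.1 and 56.3 CPM in heifers. The values rest on 4 to 14 reads in TCs, and the groups did not overlap (-1.32, SE 0.41, limma adjusted p = 0.2405). The other miRNAs transcribed with it spread to both sides of 0, with log2 fold changes of -0.64 for miR-17-5p, -0.28 for miR-20a, 0.02 for miR-19a, 0.36 for miR-19b and 0.68 for miR-92a. Over the 10 tested members of the cluster and its paralogs, 1 was called (2 with the block, which added miR-92b, higher in TCs) and the median was -0.07. Of all miRNAs, 6.52% were called without the block and 14.8% with it. miR-127, from the imprinted DLK1-DIO3 region that is expressed from the maternal chromosome, was at 31.0, 20.0 and 24.6 CPM in TCs and at 57.6, 64.7 and 45.6 CPM in heifers. The TC pools were the lower ones throughout (-1.02, SE 0.32, limma adjusted p = 0.2405). The values rest on 9, 7 and 7 reads in TCs and on 12, 26 and 17 reads in heifers. miR-127 was called in 8 of 13 other settings that kept all pools. It was lost with a pseudocount of 1 or 20 CPM and with at least 5 reads in each library. Its neighbour miR-432 was higher in level, at 382 to 608 CPM in TCs and 461 to 980 CPM in heifers, and overlapped (-0.54, SE 0.36). In the 9 tested miRNAs of that region, 8 fold changes were negative and the median was -0.54. Of the 9, 1 was called lower, beside 3.91% of all miRNAs.

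Of the upregulated miRNAs, miR-130a had the largest fold change. It belongs to the miR-130 and miR-301 family and is known from endothelial cells. It was at 11446, 11219 and 29143 CPM in TCs and at 2381, 2336 and 9080 CPM in heifers. Replicate 3 was more than 2 times the other pools within each group, and even so the highest heifer pool lay below the lowest TC pool. The log2 fold change was 2.07 (SE 0.63, limma adjusted p = 0.2405). The rest of its family did not move with it. miR-130b was at 640 to 1186 CPM in TCs and 455 to 845 CPM in heifers (0.58, SE 0.35), and miR-301a was lower in every TC pool, at 73.7 to 99.96 CPM against 119 to 153 CPM (-0.64, SE 0.29, limma adjusted p = 0.3201).

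miR-145, a miRNA of smooth muscle and pericytes, was the most even of the upregulated set. It was at 2720, 2102 and 2955 CPM in TCs and at 1051, 1244 and 1105 CPM in heifers. Both groups were narrow and clearly apart, at a log2 fold change of 1.18 (SE 0.23, limma adjusted p = 0.1485). miR-143, its partner in the same transcript, had a log2 fold change of 0.30 and was not called. miR-26a, which lies in introns of CTDSP phosphatase genes, was at 10338, 14195 and 16776 CPM in TCs and at 6495, 5721 and 7960 CPM in heifers. The groups did not overlap (1.02, SE 0.27, limma adjusted p = 0.2405). miR-26a was not called on library totals, on the deposited values or with TMM over all listed miRNAs. miR-26b, with the same seed, was nearly level between the groups at 3770 to 5398 CPM and 4181 to 4813 CPM (0.04, SE 0.23).

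The miR-23, miR-24 and miR-27 miRNAs come from a pair of clusters and are expressed in endothelium and many other tissues. miR-24-3p was at 15236, 12521 and 21148 CPM in TCs and at 6322, 6783 and 11003 CPM in heifers. Replicate 3 was again the highest pool of each group, and there was no overlap (1.03, SE 0.32, limma adjusted p = 0.2405). Like miR-26a, it was not called on library totals, on the deposited values or with TMM over all listed miRNAs. miR-27a-3p was also separate, at 974 to 1106 CPM in TCs and 590 to 692 CPM in heifers, but its log2 fold change of 0.65 (SE 0.22) was under the threshold of 1. miR-23a (0.98, SE 0.49), miR-23b-3p (1.23, SE 0.64) and miR-27b (0.47, SE 0.27) overlapped between the groups, and of these miR-23b-3p was called with the block (limma adjusted p = 0.0433). All 5 fold changes were positive, 1 was called without the block and 2 with it, and the median was 0.98. Of all miRNAs, 2.61% were called higher without the block and 8.26% with it. The positive sign held in all 5 under each of the 5 scalings and without any one pool. Because the scalings shifted all fold changes nearly alike, their agreement is no separate support.

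miR-375, known from pancreatic islets and from epithelial and cumulus cells, was at 12166, 13692 and 6475 CPM in TCs and at 5395, 5458 and 2634 CPM in heifers. Replicate 3 was the lowest pool of each group, and the lowest TC pool was still above the highest heifer pool. Its log2 fold change was 1.26 (SE 0.42, limma adjusted p = 0.2405). miR-6518, which was named in cattle, was at 68.9, 42.8 and 70.2 CPM in TCs and at 19.2, 7.46 and 34.9 CPM in heifers. Heifer replicate 2 is at the level of 3 reads, and the groups did not overlap (1.49, SE 0.49, limma adjusted p = 0.2405). Of 22 tested miRNAs of the ruminant lineage, miR-6518 was the 1 that was called, beside 2.61% of all miRNAs called higher. In this list 15 fold changes were positive, and the median was 0.22.

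**Figure D3:**
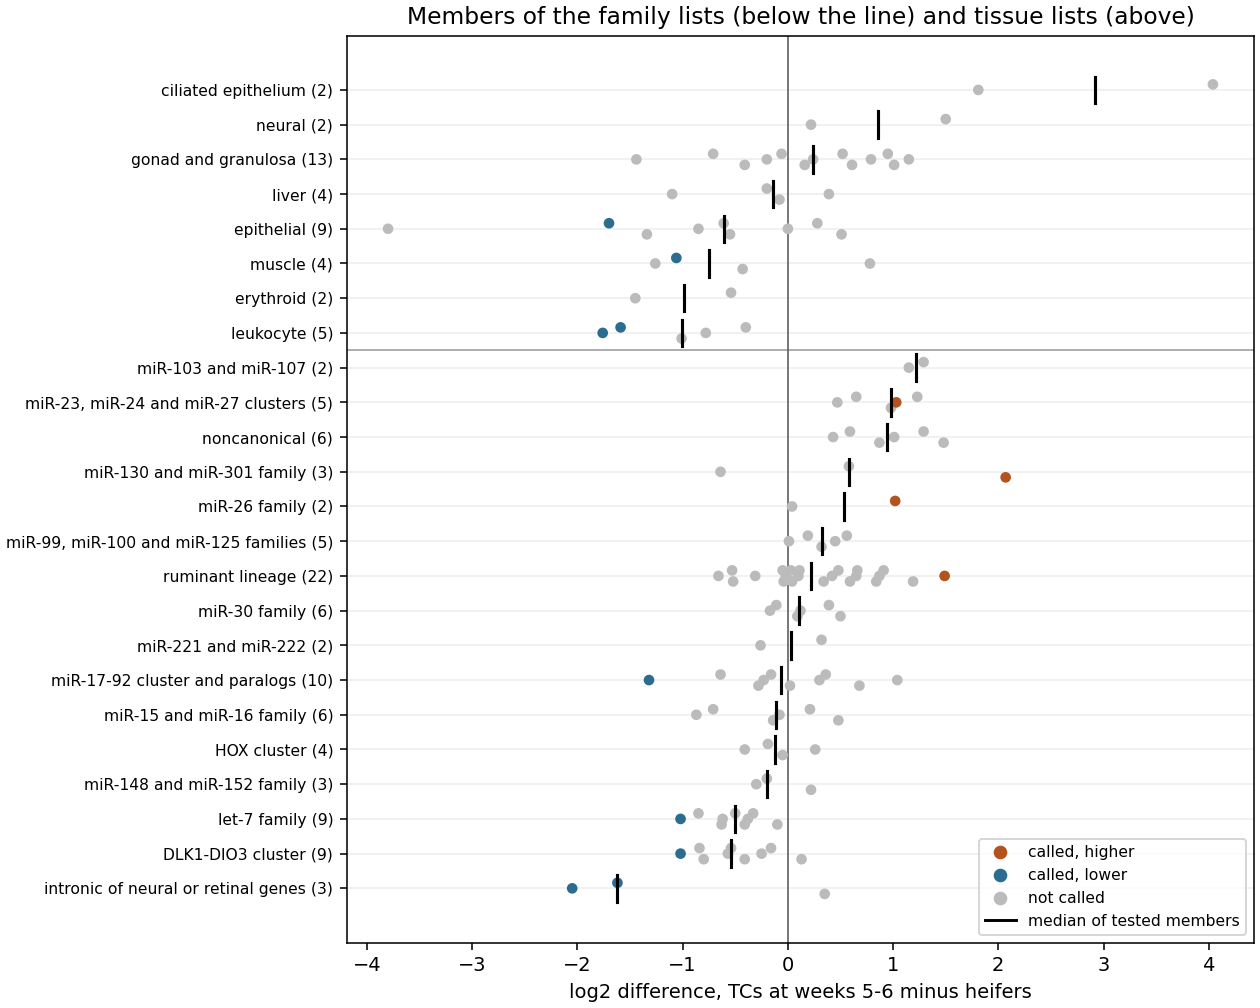
Log2 difference between TCs at weeks 5 and 6 and heifers (horizontal axis) of the tested members of 16 family lists, below the grey line, and 8 tissue lists, above it, with the number tested in parentheses, a black bar at each median and colour for called members. The 5 leukocyte and 9 let-7 members lie left of 0, the 5 members of the miR-23, miR-24 and miR-27 clusters and the 6 noncanonical ones lie right of it.

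miRNAs of the gonad and of granulosa cells were not called in either direction without the block, and 2 were called higher and 1 lower with it. Of all miRNAs, 8.26% were called higher and 6.52% lower with the block. Of the 13 tested, 8 fold changes were positive and 5 negative, and the median was 0.24. miR-378c was separate between the groups, at 365 to 439 CPM in TCs and 177 to 250 CPM in heifers, and its log2 fold change of 0.95 (SE 0.27, limma adjusted p = 0.2405) was just under the threshold. miR-378 was at 5359 to 7897 CPM in TCs and 3199 to 5256 CPM in heifers (0.52, SE 0.29). miR-132, which LH induces in granulosa cells, varied more between pools than between groups. It was at 275, 206 and 1218 CPM in TCs and at 931, 236 and 6388 CPM in heifers, and the log2 fold change was -1.44 (SE 1.22, limma adjusted p = 0.5251). Replicate 3 was the highest pool of each group, and with the block miR-132 was called lower (limma adjusted p = 0.1116).

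The members of 8 further families were not called without the block. With it, 3 of 6 noncanonical members and 2 of 2 of the miR-103 and miR-107 family were called higher, beside 8.26% of all miRNAs. In the other 6 families 0 were called. The 8 families were the HOX cluster, miR-15 and miR-16, miR-30, miR-148 and miR-152, miR-99 with miR-100 and miR-125, miR-221 and miR-222, miR-103 and miR-107, and the noncanonical miRNAs, which skip Drosha or Dicer or come from other small RNAs. For the first 6 of these the median lay between -0.20 and 0.32. miR-16a and miR-16b, which share their seed, stood out within their family. miR-16b, the fourth in level, was at 32153, 39577 and 31298 CPM in TCs and at 68560, 72103 and 49546 CPM in heifers. Every TC pool was below every heifer pool, with a log2 fold change of -0.87 (SE 0.27, limma adjusted p = 0.2405). miR-16a was likewise separate, at 4964 to 5372 CPM against 7603 to 9251 CPM (-0.71, SE 0.21, the same adjusted p). Both missed the fold change threshold alone, and miR-195 of the same family stood at -0.08 (SE 0.29).

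The noncanonical miRNAs other than miR-1306 and the miR-103 and miR-107 family were highest in TC replicate 3. miR-1306 was at 355 CPM in TC replicate 1 and at 270 CPM in TC replicate 3. miR-320a, made without Drosha and second in level, was at 91350, 41527 and 172584 CPM in TCs and at 27591, 20104 and 54147 CPM in heifers. TC replicate 2 lay below heifer replicate 3, and the log2 fold change of 1.48 (SE 0.60) had a limma adjusted p of 0.2607 without the block and 0.0268 with it, which made it a call. miR-103, an intronic miRNA of pantothenate kinase genes, was at 23385, 8700 and 64965 CPM in TCs and at 10128, 6863 and 17563 CPM in heifers (1.15, SE 0.73, limma adjusted p = 0.4443 without the block and 0.0849 with it, when it was called). miR-423-5p, the fifth in level and a member of neither list, was at 57737, 26704 and 77318 CPM in TCs. In heifers it was at 28085, 21614 and 35426 CPM (0.82, SE 0.44). In each of these 3, replicate 3 was the highest and replicate 2 the lowest pool of both groups. The 6 noncanonical members had positive fold changes with a median of 0.94, which was 0.53 without TC replicate 3 and 1.57 without TC replicate 2.

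Pools that carry the same replicate number in the labels tended to deviate from their group means in the same direction. Across the miRNAs tested, these deviations had correlations of 0.216, 0.377 and 0.386 for numbers 1, 2 and 3, and every TC pool correlated best with the heifer pool of its own number. The labels do not say what the number marks, and the pools of the 2 groups came from different animals. By the study's supplement, RNA of number 1 was measured on another day than that of numbers 2 and 3. With 3 pools a side few matchings exist, and how often this one would be best by chance was not tested. The block is given because of these correlations in the same data, so its p-values rest on a pairing that the design does not state. All 15 calls made without the block were among the 34 made with it. Of the 34, 13 had an adjusted p-value under 0.05. The median SD of the log2 difference over the 3 same-numbered pairs was 0.425, against 0.683 for the spread of the 2 groups taken without the numbers.

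The blocked fit gave miR-130a an adjusted p of 0.0219, miR-375 one of 0.0268, and let-7g, miR-24-3p, miR-26a, miR-145 and miR-204 one of 0.0433 each in limma. miR-375 was the most even of these across pairs, with log2 differences of 1.17, 1.33 and 1.30 for numbers 1, 2 and 3. For miR-130a they were 2.26, 2.26 and 1.68, and for let-7g they were -1.23, -0.94 and -0.87. The highest adjusted p-values of the 15 in the blocked limma fit were 0.1147 for miR-127, 0.1212 for miR-183 and 0.1232 for miR-708. miR-708 and miR-183 differed most between pairs, from -0.65 to -4.06 and from -0.67 to -3.40.

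**Figure D4:**
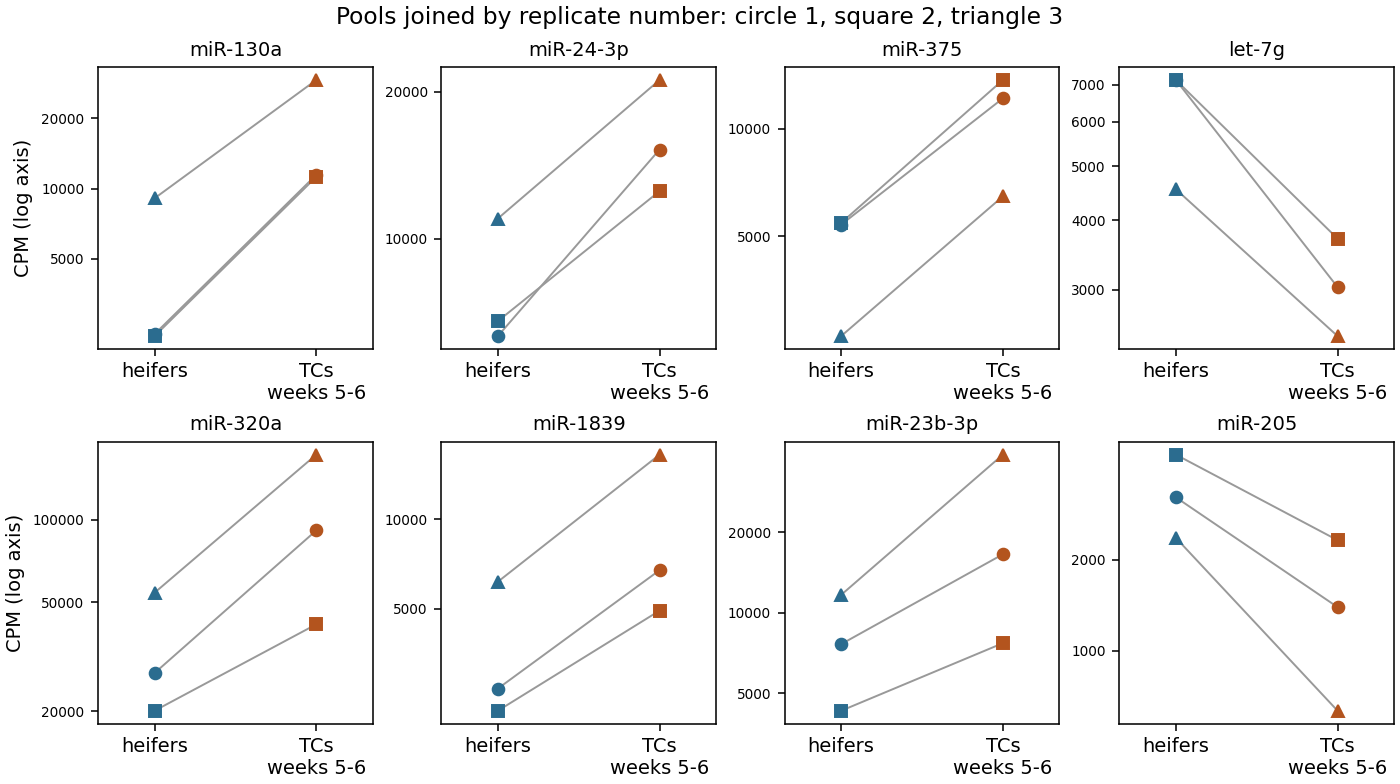
CPM (vertical log axes, each with its own range) of 8 miRNAs in heifers and TCs at weeks 5 and 6, with a line joining the pools of the same replicate number. The upper row shows 4 miRNAs called with and without the block and the lower row 4 called with the block alone. In each row they are those with the smallest p-values in the blocked limma fit. That choice favours lines that run the same way, as they do in every panel. The group ranges overlap for miR-320a, miR-1839 and miR-23b-3p.

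A further 19 miRNAs were called with the block. miR-320a had log2 differences of 1.73, 1.05 and 1.67 within the pairs and miR-1839 of the noncanonical list of 1.32, 1.12 and 1.42, and both had an adjusted p of 0.0268 in the blocked limma fit. miR-23b-3p (from 0.84 to 1.74) and miR-205 (-1.20, -0.93 and -1.88) had one of 0.0433. miR-103 and miR-107, which share a seed, were both called, at 1.21, 0.34 and 1.89 and at 1.49, 0.31 and 2.06. Their difference was smallest between the pools numbered 2. Over all miRNAs the block raised the calls from 6.52% to 14.8%, of which 8.26% were higher and 6.52% lower in TCs. Calls in the lists rose as well. Called lower were 3 of 5 leukocyte members (miR-146a was added) and 3 of 9 epithelial members (miR-184 and miR-205). Called higher were 3 of 6 noncanonical members (miR-320a, miR-1839 and miR-1246) and 2 of 5 of the miR-23, miR-24 and miR-27 clusters. Of 13 gonad and granulosa members 3 were called, namely miR-424-5p and miR-503-3p, which were higher, and miR-132, which was lower. miR-122 of hepatocytes was added among 4 liver members. It was at 4231, 5735 and 4538 CPM in TCs and at 17117, 11808 and 5342 CPM in heifers, and the log2 difference shrank from -2.02 to -1.04 and -0.24 for numbers 1, 2 and 3.

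miR-34c and miR-449a, which are the mark of multiciliated cells, were high in a single TC pool. miR-34c was at 79.2, 7860 and 73.7 CPM in TCs and at 43.2, 42.3 and 523 CPM in heifers. TC replicate 2 was thus far above every other pool, and the next highest was heifer replicate 3. This gave a log2 fold change of 1.81 (SE 1.91, limma adjusted p = 0.6153), and it was -0.31 without TC replicate 2. miR-449a was at 86.1, 1614 and 49.1 CPM in TCs, with 0 reads in heifer replicates 1 and 2, where 3 reads would be 14.4 and 7.5 CPM, and 67.0 CPM in heifer replicate 3. Heifer replicate 3 lay above TC replicate 3, and the adjusted p was 0.2549 in limma. miR-34b, the cluster partner of miR-34c, was listed for TCs and not for heifers, with 3, 169 and 1 reads in the TC pools. The 3 widest SDs of the TC pools on the log2 scale were those of miR-34c (3.81), miR-184 (2.85) and miR-449a (2.64), beside a median of 0.488 over all miRNAs. In heifers the widest was miR-132 (2.38), beside a median of 0.409, and the TCs were the wider group in 140 of 230 miRNAs.

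The remaining tissue lists held few members. Of 4 liver miRNAs tested, 0 were called without the block and 1 (miR-122) was called lower with it, beside 6.52% of all miRNAs. The median was -0.14, with miR-192 at 8688 to 13656 CPM in TCs and 5715 to 15236 CPM in heifers (-0.08, SE 0.43). Of 2 neural miRNAs tested, 0 were called in either fit. miR-9-5p was at 37.9, 280 and 28.1 CPM in TCs and at 12.4 to 37.5 CPM in heifers (1.5, SE 0.85), so that TC replicate 2 was again the highest pool, and miR-128 differed by 0.22 (SE 0.25).

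miR-592, which lies in an intron of GRM8, was low throughout. It was at 24.1, 34.3 and 42.1 CPM in TCs and at 24.0, 14.9 and 40.2 CPM in heifers, so the groups overlapped (0.35, SE 0.42, limma adjusted p = 0.6608). With miR-204 and miR-708 it made up the 3 tested miRNAs from introns of neural or retinal genes. Of these 2 were called lower, beside 3.91% of all miRNAs, and the median was -1.62.

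To show where the TCs at weeks 5 and 6 stood among the other cows, all 13 libraries were scaled and fitted together over 247 miRNAs. The other groups were TCs at weeks 9 and 10 (3 pools of 7 cows), always negative cows (ANCs, 2 pools of 2 cows) and always positive cows (APCs, 2 pools of 2 cows), which held their energy balance through the period. The TCs of both times were drawn from the same 20 cows, and whether the pools shared animals was not stated. The fit treated all pools as independent. In limma, 0 miRNAs were called between TCs at weeks 5 and 6 and TCs at weeks 9 and 10 (0%), ANCs (0%) or APCs (0%), with 23, 25 and 7 at an unadjusted p under 0.05 and smallest adjusted p-values of 0.3711, 0.3157 and 0.8855. The same fit called 17 of the 247 miRNAs against heifers, 8 higher and 9 lower in TCs at weeks 5 and 6. It did not call miR-375, miR-145, miR-24-3p, miR-26a and miR-18a, which the fit of 6 libraries had called. A p that misses the threshold does not show that the cow groups had the same levels.

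**Figure D5:**
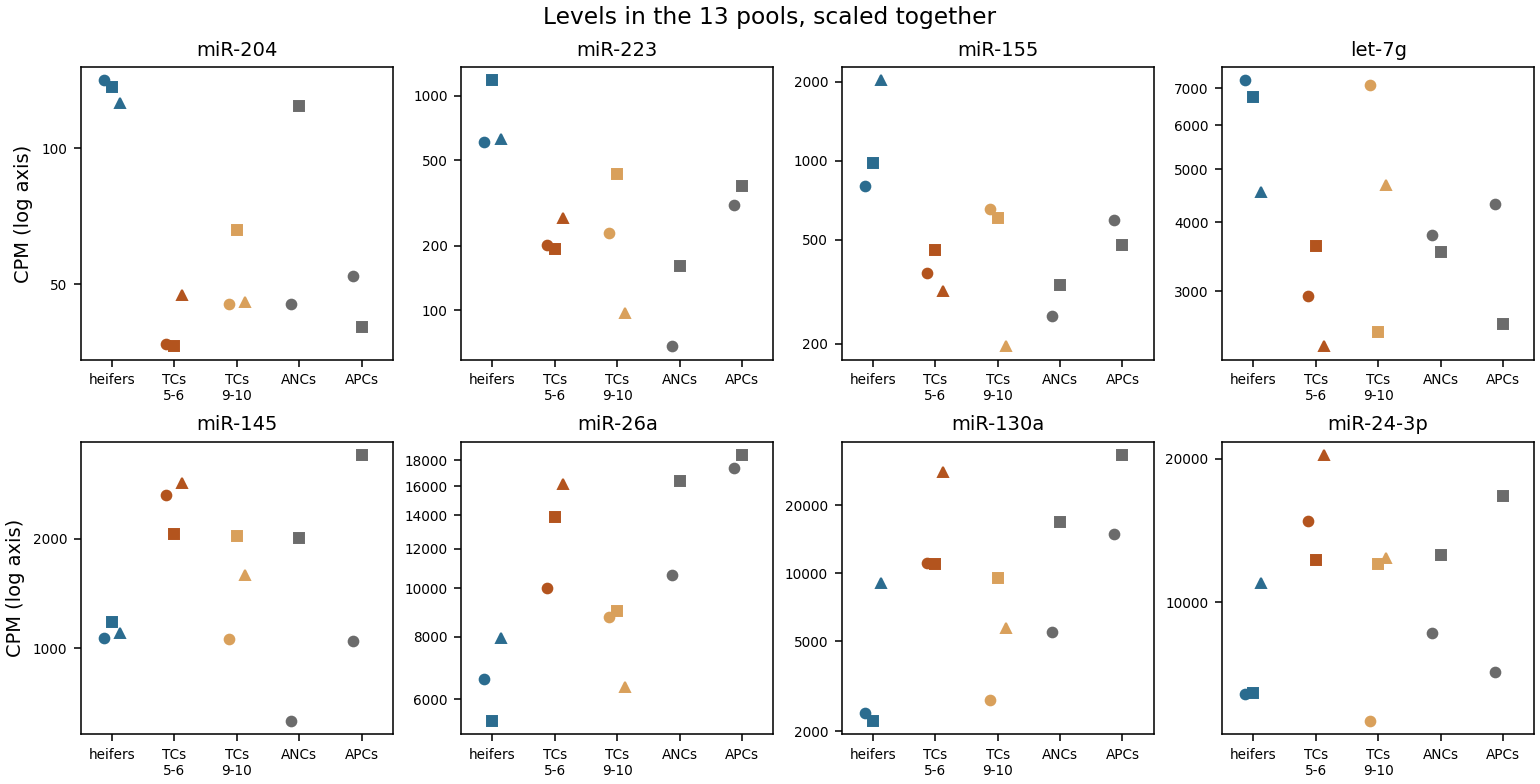
CPM (vertical log axes, each with its own range) of 8 called miRNAs in each of the 13 pools scaled together, in heifers, TCs at weeks 5 and 6, TCs at weeks 9 and 10, ANCs and APCs, with markers for replicates 1 to 3. The miRNAs are those with the 4 smallest p-values in each direction among the 15 calls of the fit of 6 libraries. Of them, miR-145, miR-26a and miR-24-3p were not called in the fit of 13. ANC replicate 2 stands near the heifers for miR-204.

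miR-204 was at 36.4 to 47.3 CPM in TCs at weeks 5 and 6 on this scale, at 45.2, 65.9 and 45.6 CPM in TCs at weeks 9 and 10, at 45.2 and 124 CPM in ANCs, at 52.2 and 40.1 CPM in APCs and at 126 to 141 CPM in heifers. Of the 10 cow pools, ANC replicate 2 was the one that came near the level of heifers. miR-223 was at 193 to 270 CPM in TCs at weeks 5 and 6, at 96.5 to 433 CPM in TCs at weeks 9 and 10, at 67.7 and 160 CPM in ANCs and at 309 and 377 CPM in APCs, all below the 609 to 1177 CPM of heifers. The TCs at weeks 5 and 6 thus lay inside the range of the other cows for miR-223.

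miR-130a was at 10989 to 28042 CPM in TCs at weeks 5 and 6 and at 2757, 9521 and 5735 CPM in TCs at weeks 9 and 10. The pools of the 2 times did not overlap, and the log2 difference was 1.5 (SE 0.67, adjusted p = 0.5233 in limma). In ANCs it was at 5508 and 16823 CPM, in APCs at 14922 and 33416 CPM, and in heifers at 2216 to 9072 CPM. miR-26a was at 10032 to 16142 CPM at weeks 5 and 6 and at 6335 to 9022 CPM at weeks 9 and 10, again without overlap (0.72, SE 0.29, the same adjusted p). miR-592 was lower at weeks 5 and 6, at 23.4 to 40.5 CPM, than at weeks 9 and 10, at 88.0 to 142 CPM, with a log2 difference of -1.62 (SE 0.40, adjusted p = 0.3711 in limma). None of these passed the adjusted threshold. The comparisons of the 4 cow groups with heifers share the same 3 heifer pools, so their agreement was not assessed.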

How the data were processed

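Small RNA of follicular fluid EVs was sequenced by the authors with the QIAseq miRNA kit on a NextSeq 500. Reads were trimmed with Cutadapt 1.11, mapped to the bovine genome (UMD3.1) with Bowtie2 2.2.2, annotated against miRBase and normalized with TMM. The deposited values are TMM-normalized CPM, not logged. Files whose total exceeds what CPM can sum to were recorded as a deposited signal, made by the authors in the same way. Groups had been scaled separately, so the reads behind the values were recovered from the steps at the low end (3681 of 3681 values whole within 0.1 read) and the 6 libraries were rescaled together.

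miRNAs were filtered with filterByExpr (minimum count 10, minimum total 15) and TMM factors were computed on those kept (edgeR 4.0.16, R 4.3.3). Groups were compared with limma 3.58.1, with a mean-variance trend, on log2(CPM + 5), and p-values were adjusted over all miRNAs tested by the Benjamini-Hochberg method. edgeR's quasi-likelihood test and DESeq2 1.42.0 on recovered reads, other scalings, filters and pseudocounts, a fit of all 13 libraries, the day on which RNA was measured (replicate 1 against replicates 2 and 3, from the study's supplement) and leaving out each pool were alternatives, and TMM over all listed miRNAs was added after seeing the data. The fits were tested on simulated reads. Replicate numbers come from the labels. Same-numbered pools deviated together (correlations 0.216, 0.377 and 0.386), so the fit with the number as a block is given beside the results it changes.

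Named were all called miRNAs, the 5 highest in CPM, those the study names for these cows, and up to 3 abundant members of each list. Other list members, miRNAs called with the block and neighbours were named after their values were seen. The comparison, the lists and the tests were chosen with earlier results of these data known. Gene neighbours were taken from RefSeq (ARS-UCD2.0), in which 268 of 274 miRNAs matched a hairpin. TCs at weeks 9 and 10, ANCs and APCs entered the fit of 13 libraries alone.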

Additional observations from a re-analysis of the deposited data

How the results depend on the processing

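The number of called miRNAs depended on the processing. Against 15 calls (6 higher and 9 lower in TCs), DESeq2 on recovered reads made 35 (22 higher), library totals without TMM 26 (22 lower), a pseudocount of 1 CPM made 4 (1 higher, 3 lower) and an adjusted p of at most 0.05 made 0. On deposited values 16 were called lower, without a filter 3 were called higher, and with at least 5 reads in each library 4 were called lower. With a covariate for the day on which RNA was measured limma made 0 calls, with 29 miRNAs at an unadjusted p under 0.05. That covariate left the fold changes as they were. edgeR on recovered reads made 20 calls, which included all 15. Of the 13 other settings that kept all pools, miR-204, miR-223 and miR-155 were called in 12, and miR-24-3p and miR-26a in 6. Leaving out 1 pool gave 0 to 46 calls, 0 to 34 higher and 0 to 12 lower. These fits have 5 pools, and each gave 19 to 62 miRNAs at an unadjusted p under 0.05. The cause of these shifts was not tested. The replicate block raised the calls to 34 (19 higher and 15 lower), all 15 included, and ended none of them. Of the 20 log2 fold changes followed through the settings, miR-34c alone changed sign: leaving out 1 pool moved it from -0.31 (without TC replicate 2) to 2.99. The 15 calls are among the 20, and their groups did not overlap, so leaving out 1 pool could hardly change their sign.

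Depth limits the low miRNAs: 3 reads stand at 7.5 to 14.4 CPM, and 44 of the 274 miRNAs were too low to test. Intervals for such counts would cover counting error only. With 3 pools a side and an adjusted p of at most 0.25, a call admits false positives, and miRNAs that were not called may still differ.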

Other observations

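Both arms of 14 hairpins were tested between TCs at weeks 5 and 6 and heifers. The arms of miR-22 both had positive log2 fold changes (0.96, SE 0.61, for miR-22-3p and 0.89, SE 0.44, for miR-22-5p) and those of miR-425 both had negative ones (-0.59, SE 0.28, for miR-425-3p and -0.60, SE 0.22, for miR-425-5p). The arms of miR-503, a miRNA of the ovary, went opposite ways, with 1.01 (SE 0.39) for miR-503-3p and -0.71 (SE 0.49) for miR-503-5p, and so did those of miR-151, with -0.60 (SE 0.24) for miR-151-3p and 0.48 (SE 0.40) for miR-151-5p. In both cases the difference between the arms was not tested, and none of the 8 arms was called without the replicate block, with which miR-503-3p was called higher.

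A further 11 miRNAs were listed for TCs alone and 22 for heifers alone, and they could not be compared, since a miRNA that is not listed is not known to be at 0. Other than miR-34b, the highest total over 3 pools was 19 reads, for miR-6528 in heifers with 4, 2 and 13 reads. miR-363 of a miR-17-92 paralog cluster had 3, 10 and 5 reads in heifers, and miR-383 of granulosa cells had 2, 6 and 5. miR-211, an intronic miRNA with the seed of miR-204, was listed for TCs with 3, 2 and 5 reads.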
